A study of Mus musculus with 3 samples.

Results

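Of 250005 merged regions of open chromatin in mutant mouse kidney, 72317 (28.9%) held a peak in each of 3 libraries. They were found by merging the peak lists of the libraries wherever peaks overlapped by at least 1 bp and keeping the merged regions with a peak of every library. They are called common regions here, and the 177688 others are called other merged regions. Membership rests on peak calls and so on the depth and the cells of each library. The assay was mtscATAC-seq, in which a transposase cuts accessible DNA inside fixed single cells that keep their mitochondria. All mice carried a point mutation in trnE, the mitochondrial gene for the glutamate tRNA, and no library from kidney without it was used here. Old replicate 1 came from kidney at 75 weeks of age with a mutation load of 75%, the share of mitochondrial genomes that carry the change. Old replicate 2 came from kidney at 75 weeks with a load of 80%, and the young library from kidney at 3 weeks with a load of 80%. There was 1 young library, so age has no replicate on the young side, and old replicate 1 also differs from the others in load.

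Old replicate 1 stood apart in its cells. Of its 5315 kept cells, 4819 were immune-like and 122 proximal tubule-like. Old replicate 2 held 9 immune-like and 2692 proximal tubule-like cells among 3950, and the young library 345 and 3021 among 3976. The libraries held 5656 barcodes and 96093221 counts in old replicate 1, 4302 barcodes and 64729297 counts in old replicate 2, with 4440 barcodes and 110871506 counts in the young library. They shared 28 to 39 barcode sequences pairwise. Nothing in the labels states that the old libraries are from different animals, and p-values then reflect only the variation among these libraries, possibly technical. In bulk values of a library, fewer cells of a type and less open chromatin per cell cannot be told apart.

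Accessible regions are of several kinds. Promoters, the stretches around transcription starts, are often rich in CpG and bound by general factors such as SP and KLF proteins, NFY, NRF1 and ETS proteins, and those of basic cell functions are open in most cell types. Enhancers lie away from starts and are mostly open in the cell types that use them. In kidney, the proximal tubule reclaims filtered solutes under factors such as HNF4A and HNF1, whereas PU.1, RUNX and IRF proteins act in blood cells.

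The promoters below show the kinds of common region that the values turn on. Each is given 5′ to 3′ on the strand of its gene, as the 250 bases before the RefSeq start (GRCm38.p6), with matches to any of 13 short motifs in capitals. Hjurp encodes a chaperone that places the centromeric histone variant, and its promoter at chr1:88277580-88277829 (minus strand) was the most open of the evenly open promoters when these are ranked by their lowest library. Ears2 and Wars2 encode the mitochondrial enzymes that charge the tRNAs for glutamate and tryptophan. Ears2 acts on the tRNA that carries the mutation in these mice, and its promoter lies at chr7:122067087-122067336 (minus strand), that of Wars2 at chr3:99140840-99141089 (plus strand).
Hjurp: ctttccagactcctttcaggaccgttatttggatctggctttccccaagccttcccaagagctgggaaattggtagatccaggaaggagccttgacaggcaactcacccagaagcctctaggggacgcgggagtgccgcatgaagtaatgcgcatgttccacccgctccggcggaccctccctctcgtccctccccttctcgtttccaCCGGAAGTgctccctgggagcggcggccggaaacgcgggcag
Ears2: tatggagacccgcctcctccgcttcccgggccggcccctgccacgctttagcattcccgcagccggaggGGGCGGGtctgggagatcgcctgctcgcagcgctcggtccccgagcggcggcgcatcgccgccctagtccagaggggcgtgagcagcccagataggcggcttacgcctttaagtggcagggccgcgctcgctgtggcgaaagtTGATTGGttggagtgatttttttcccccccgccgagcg
Wars2: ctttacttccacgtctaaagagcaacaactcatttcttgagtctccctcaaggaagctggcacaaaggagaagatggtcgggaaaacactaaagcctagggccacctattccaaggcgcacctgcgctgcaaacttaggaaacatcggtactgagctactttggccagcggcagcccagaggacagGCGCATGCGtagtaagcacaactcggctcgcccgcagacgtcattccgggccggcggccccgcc
The Hjurp promoter held 1 ETS match (CCGGAAGT). Ears2 held SP/KLF (GGGCGGG) and NFY (CCAATCA, here on the other strand) matches, and Wars2 an NRF1 match (GCGCATGCG).

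The next 2 are immune-biased common promoters, of Cd37, a tetraspanin of leukocytes, at chr7:45238840-45239089 (minus strand), and of Srgn, the proteoglycan of blood cell granules, at chr10:62507758-62508007 (minus strand).
Cd37: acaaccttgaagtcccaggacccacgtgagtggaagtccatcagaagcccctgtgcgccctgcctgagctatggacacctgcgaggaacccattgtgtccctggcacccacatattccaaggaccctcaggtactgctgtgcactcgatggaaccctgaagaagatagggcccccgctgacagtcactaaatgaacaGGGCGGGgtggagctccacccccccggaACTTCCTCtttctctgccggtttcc
Srgn: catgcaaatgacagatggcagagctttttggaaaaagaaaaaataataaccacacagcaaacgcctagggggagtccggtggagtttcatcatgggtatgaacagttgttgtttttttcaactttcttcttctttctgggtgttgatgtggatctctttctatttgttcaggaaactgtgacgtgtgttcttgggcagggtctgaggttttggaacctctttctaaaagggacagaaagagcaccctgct
Cd37 held an SP/KLF and a PU.1 match (GAGGAAGT, here on the other strand), and Srgn held none of the 13.

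Tubule bias is shown by Slc3a1, part of the transporter that reclaims cystine and basic amino acids, at chr17:85028097-85028346 (plus strand), and by Pck1, the rate-limiting enzyme of gluconeogenesis, at chr2:173152823-173153072 (plus strand). H2ac7, a replication-dependent histone H2A gene at chr13:23574131-23574380 (plus strand), was the promoter lower in old than in young proximal tubule-like cells.
Slc3a1: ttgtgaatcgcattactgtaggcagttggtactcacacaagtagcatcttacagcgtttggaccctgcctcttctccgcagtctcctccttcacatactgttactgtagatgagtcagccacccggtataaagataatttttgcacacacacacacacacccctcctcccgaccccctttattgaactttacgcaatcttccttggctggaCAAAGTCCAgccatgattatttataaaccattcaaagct
Pck1: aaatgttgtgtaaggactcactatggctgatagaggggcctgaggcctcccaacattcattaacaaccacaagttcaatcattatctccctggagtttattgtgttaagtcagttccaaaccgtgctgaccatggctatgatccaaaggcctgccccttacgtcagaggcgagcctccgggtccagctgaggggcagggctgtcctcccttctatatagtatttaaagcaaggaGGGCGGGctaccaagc
H2ac7: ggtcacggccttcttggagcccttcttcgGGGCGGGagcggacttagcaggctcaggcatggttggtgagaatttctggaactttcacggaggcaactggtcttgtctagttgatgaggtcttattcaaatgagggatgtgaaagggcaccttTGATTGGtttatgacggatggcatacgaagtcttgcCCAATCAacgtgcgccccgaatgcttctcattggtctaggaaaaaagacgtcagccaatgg
Slc3a1 held an HNF4 match (CAAAGTCCA) that began 39 bp before the start, and Pck1 an SP/KLF match. H2ac7 held 1 SP/KLF and 2 NFY matches. Such matches describe the letters and are not evidence that a factor was bound.

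Common regions were promoter-rich. Promoter here means overlap with 1000 bp either side of a listed start, and distal means gene body or intergenic. Promoters made up 13987 of the common regions (19.3%), against 8874 of the other merged regions (4.99%). Gene body regions were 46.8% of common and 57.3% of other merged regions, and intergenic regions 28.4% and 35.4%. The remaining 5.42% of common and 2.32% of other regions lay near the end of a gene without a listed start and could not be placed. Without these, promoters were 20.4% of common and 5.11% of other regions. Seen from the annotation, 61.2% of all merged promoter regions were common, against 24.9% of gene body and 24.7% of intergenic ones.

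A start itself lay inside 17.0% of common regions and 2.14% of other merged regions, and the median distance to a listed start was 12714 bp and 22899 bp. Of protein-coding genes with a listed start, 11066 of 17492 (63.3%) had a common region there, and of long non-coding RNA genes 3020 of 9533 (31.7%). The share of merged regions that were common ran between 25.7% on chromosome X and 32.3% on chromosome 11, apart from chromosome Y, where it was 15 of 32. Peaks called in at least 2% of barcodes gave 28081 common regions, of which 37.3% were promoters. Without old replicate 1 the rule would keep 118097 regions, 14.0% of them promoters.

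**Figure D1:**
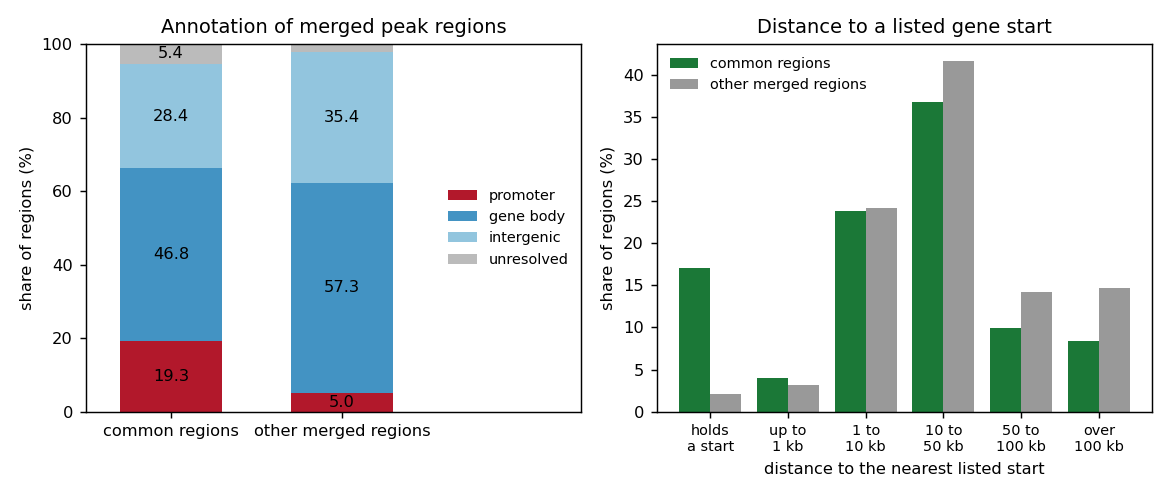
Share of regions (percent) by annotation (left) and by distance to the nearest listed start (right), for common regions beside other merged regions. Regions that could not be placed and those on chromosome 18 are left out on the right. Promoters are 19.3% of common and 4.99% of other merged regions, and a start lies inside 17.0% and 2.14% of them.

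Merging adds the edges of several libraries' peaks, so merged widths are given beside those of the peaks themselves. The median merged width was 963 bp (quartiles 918 and 1050, range 377 to 4135), against 893 bp for other merged regions. The libraries' own peaks inside common regions had a median mean width of 895 bp. Common promoters had a median of 949 bp, gene body regions 972 bp and intergenic regions 958 bp, and their own peaks had 897, 895 and 896 bp. Immune-biased regions, defined below, were 1025 bp wide when merged but 893 bp by their own peaks, and tubule-biased regions 956 and 896 bp. Several peaks of a library fell into 3420 common regions, and 529 were over 2000 bp.

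The widest common region, 4135 bp, lay at the start of Gse1, which encodes a partner of histone deacetylase complexes. It had 33.3 CPM (a count scaled to a fixed total over all of a library's peaks) in old replicate 1, 28.2 in old replicate 2, with 7.63 in the young library. Both old libraries were above the young one there. A library's count sums only its own peaks inside the region, so peak calls and openness cannot be told apart in these values. The next widest lay in gene bodies, 8623 bp from a start of Igf2r (3386 bp) and 7311 bp from Gm34771 (3349 bp).

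Common regions took 67.4% of the counts of old replicate 1, 82.1% of old replicate 2, with 82.7% of young kidney. Their share of each library's peaks was 43.9%, 51.5% and 49.4%. Values in threes are always for old replicate 1, old replicate 2 and young, in that order. The median region had 199, 419 and 625 counts, or 2.07, 6.47 and 5.64 CPM, and was open in 1.61%, 4.72% and 6.51% of barcodes. Counts were more concentrated in old replicate 1, where the 10% of regions most open there held 60.8% of the common counts, against 40.1% and 43.1% for the same measure in the others. Under 20 counts stood behind 80 regions in old replicate 1, 3 in old replicate 2, with 0 in young kidney. By class, common regions held 65.5% of the counts of immune-like cells and 95.5% of those of proximal tubule-like cells in old replicate 1, and 80.6% and 83.1% in young kidney.

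Evenly open regions were those with a highest CPM of at most 1.5 times the lowest over the 3 libraries, which were 13190 (18.2%). The measure chose them, so their evenness is a description. Even promoters had median levels of 27.6, 24.4 and 25.7 CPM (old replicate 1, old replicate 2, young) and were open in 19.4%, 16.2% and 24.9% of barcodes, and even distal regions had 4.45, 4.96 and 4.63 CPM. Which regions are even depends on how libraries are scaled. Promoters were even in 36.8% and distal regions in 12.7% of cases by CPM, and in 24.6% and 15.1% relative to common-region counts only, but in 11.1% and 18.5% after TMM (trimmed mean of M-values, a scaling that centres the bulk of regions), where the order turned round. Against the mean of the others, old replicate 1 was raised 2.05-fold from CPM to TMM, of which 1.22-fold came from taking totals over common regions only and 1.68-fold from the TMM factors. The TMM set of 12211 even regions shared 340 with the 13190 by CPM.

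The spread between libraries does not depend on scaling. The level in old replicate 1 over the mean of old replicate 2 and the young library had an interquartile range of 3.50-fold over promoters and 5.61-fold over distal regions. Promoters of 2 or more genes had 1.798-fold, and the 10% most open common regions had 1.57-fold. Old replicate 2 over the young library varied less, by 1.24-fold over promoters and 1.43-fold over distal regions. The fullest 1.5-fold window, placed wherever it held most regions, held 32.3% of promoters and 13.5% of distal regions for old replicate 1 over the others. For old replicate 2 over the young library it held 76.4% and 55.7%. Without old replicate 1, 84.4% of common regions were even by CPM.

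**Figure D2:**
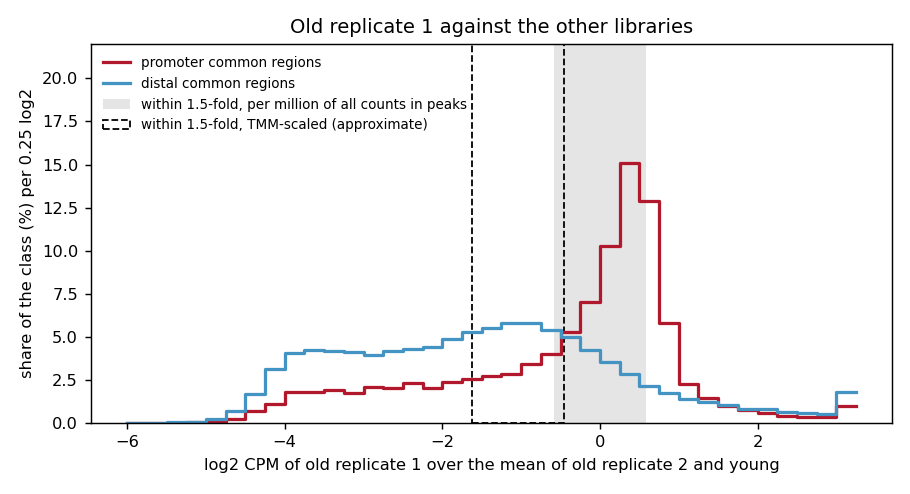
Share of common promoter and distal regions (percent, y) by log2 of CPM in old replicate 1 over the mean of the other libraries (x), with the end bins holding all values beyond, and the 1.5-fold window of equal levels drawn for CPM and for TMM scaling. Promoters crowd into a peak just above 0 while distal regions spread to the left, so the window taken decides which of them are called even.

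The most open even promoters were chosen by their lowest library. Hjurp had 172, 180 and 176 CPM (old replicate 1, old replicate 2, young), Zfp78, a zinc finger gene, 172, 165 and 188, and Wipi1, which acts in autophagy, 150, 147 and 165. The promoter of the long non-coding RNA 4932412D23Rik had 233, 170 and 194 CPM. Hjurp was open in 66.1%, 62.1% and 69.5% of barcodes, and Wipi1 in 58.4%, 57.9% and 69.4%. None of the 4 was within 1.5-fold after TMM (2.01-fold at Hjurp, 2.15 at Wipi1, 2.19 at Zfp78 and 2.87 at 4932412D23Rik). The most open even distal regions lay 2522 bp from Ifna13 (265, 375 and 341 CPM) and 8351 bp from Phf19 (161, 127 and 138). Others lay 28392 bp from Csf2ra (120, 173 and 148) and 1266 bp from Clec11a (113, 111.02 and 118). No list of regions prone to spurious signal was applied.

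Regions next to the limit show how fine it is. Just inside, a region 1841 bp from Pnpla5 had 1.02, 1.53 and 1.11 CPM (old replicate 1, old replicate 2, young). The promoters of Rnf4 (61.5, 41.0 and 45.9 CPM) and Aktip (127, 84.6 and 95.3), just outside, had ratios that round to the same 1.5.

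Bias was read from the summed counts of immune-like and proximal tubule-like cells, as log2 of immune-like over tubule-like CPM with 1 added to each. A region had to be at least 2-fold to one side in both old replicate 1 and young kidney, the samples with enough cells of both classes. The cells were clustered on these regions, so bias is a description with no test. Immune bias was found at 5080 common regions (7.02%) and tubule bias at 23980 (33.2%), and 43257 (59.8%) had neither. The log2 ratios in old replicate 1 and the young library had the same sign at 78.6% of regions (Pearson 0.844, Spearman 0.807 across regions, which share cell classes and are not independent). Opposite 2-fold calls were made at 733 regions.

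Tubule bias was commoner at distal than at promoter regions under each scaling: 19.8% of promoters and 37.1% of distal regions by CPM, and 15.8% and 32.6% after TMM. Immune bias was at 6.20% of promoters and 7.31% of distal regions by CPM, an order that turned round after TMM (13.6% and 10.9%). Tubule-biased regions had medians of 0.999, 9.18 and 8.70 CPM (old replicate 1, old replicate 2, young) in the whole libraries, and immune-biased ones 13.05, 2.56 and 2.35. Tubule-biased regions made up 6.10% of the common counts of old replicate 1, 36.7% of old replicate 2, with 36.7% of young kidney. Few biased regions were even: 256 immune-biased and 56 tubule-biased.

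**Figure D3:**
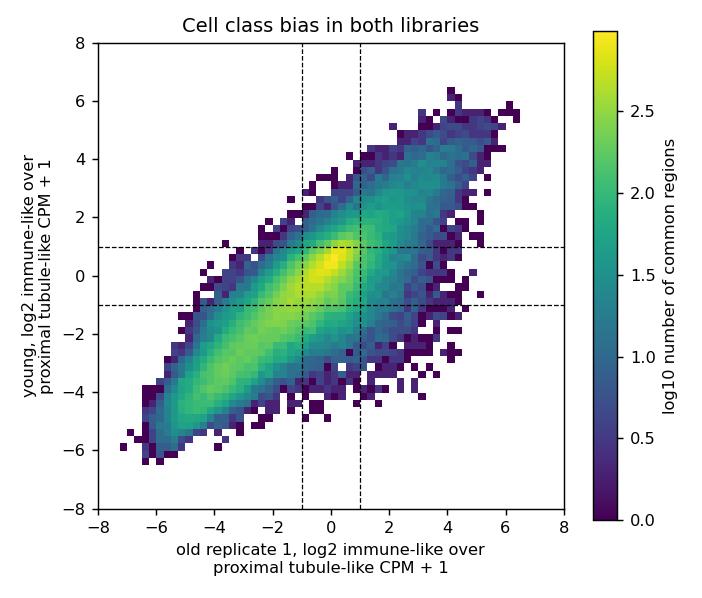
Density of common regions by log2 of immune-like over proximal tubule-like CPM in old replicate 1 (x) and in young kidney (y), with the 2-fold limits as lines. Most regions lie along the diagonal, with 23980 in the tubule-biased corner and 5080 in the immune-biased corner.

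The strongest immune-biased promoters belonged to Srgn and to Gm32287, Gm42376 and Gm38525, which are predicted genes. Srgn had 43.4 CPM in immune-like and 0 in proximal tubule-like cells of old replicate 1, and 65.0 and 0.639 in young kidney. Its whole-library level was 39.7, 2.101 and 2.75 CPM (old replicate 1, old replicate 2, young), high in old replicate 1 and low in both tubule-rich libraries. Gm32287 had 75.7, 2.13 and 3.31 CPM in the whole libraries, with log2 ratios of 6.39 in old replicate 1 and 5.50 in young kidney. The strongest immune-biased distal regions lay 66095 bp from Gm19510 (log2 6.18 in old replicate 1 and 5.80 in young), 10816 bp from Supt4a (6.31 and 5.64), 61439 bp from Gm33782 (5.89 and 5.58) and 8698 bp from Gm33370 (6.21 and 5.50).

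Among tubule-biased promoters, Pck1 had 0.0636 CPM in immune-like and 146 in proximal tubule-like cells of old replicate 1, and 0.670 and 96.06 in the young library. In the whole libraries it had 6.31, 82.0 and 89.2 CPM (old replicate 1, old replicate 2, young). Crocc, which encodes the ciliary rootlet protein, had log2 ratios of -6.28 in old replicate 1 and -6.16 in young kidney. Klhdc7a followed with -5.86 and -6.01, and the predicted gene Gm33049 with -5.82 and -6.13. The strongest tubule-biased distal regions lay 18850 bp from Col18a1, a basement membrane collagen (-6.35 in old replicate 1 and -6.29 in young), and 1432 bp from Plin1, a lipid droplet coat gene (-6.32 and -6.24). The next lay 8588 bp from Gm38934 (-6.16 and -6.06) and 28278 bp from Spns2, a sphingosine phosphate exporter (-6.25 and -6.06). The 122 proximal tubule-like cells of old replicate 1 held 2338355 counts, so a low level there rests on few counts.

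Gene lists were read at their promoters, with the most open common region at a start taken for each gene. All 23 listed genes for charging and modifying mitochondrial tRNAs had a common promoter, against 63.3% of protein-coding genes. Over all common promoters, 36.8% were even by CPM, 24.6% relative to common counts and 11.1% after TMM. Immune bias was at 6.20%, 10.9% and 13.6% of them under these scalings, and tubule bias at 19.8%, 18.5% and 15.8%. Of the 23, by CPM 21 were even, 11 relative to common counts and 0 after TMM, and none was biased to either class under any of the 3 scalings. Ears2 had 52.0, 38.5 and 43.2 CPM (old replicate 1, old replicate 2, young), and Wars2 62.0, 42.3 and 43.3. Both were highest in old replicate 1, and at Ears2 the log2 ratio of immune-like over tubule-like was -0.21 in old replicate 1 and 0.64 in young kidney. Mto1 and Gtpbp3, which together modify the wobble base of some mitochondrial tRNAs, glutamate among them, had 23.3, 19.96 and 21.2 CPM and 37.6, 26.7 and 29.1 CPM. Trmu, which thiolates that base, had 39.0, 32.0 and 33.9. Old replicate 1 was the highest library at all 3, as it was at 49.2% of all common promoters. The 2 that were not even were Gars (21.8, 13.8 and 15.4 CPM) and Mars2 (43.8, 27.3 and 31.1), the glycine and methionine enzymes.

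Nuclear genes for subunits of oxidative phosphorylation had a common promoter in 17 of 17 cases. Of these 14 were even by CPM, 7 relative to common counts and 0 after TMM (36.8%, 24.6% and 11.1% of all common promoters), and 2 were immune-biased after TMM only. Ndufa9, of complex I, had 15.1, 14.9 and 14.8 CPM (old replicate 1, old replicate 2, young), and Sdha, of complex II, 25.8, 24.9 and 22.7. Ndufs8 stood higher in old replicate 1, at 116 CPM against 60.1 in old replicate 2 and 71.9 in young. For mitochondrial DNA maintenance 15 of 16 genes had one and 9 were even by CPM (4 and 0 under the other scalings). Polg, the mitochondrial DNA polymerase, had 58.7, 57.6 and 60.4 CPM, and Tfam, which packs and transcribes mitochondrial DNA, 29.4, 24.2 and 27.0. Twnk, the helicase, had 54.4, 23.4 and 24.97, and Dguok, a nucleoside kinase, was immune-biased (75.9, 37.6 and 42.3).

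Fatty acid oxidation genes were common in 16 of 16 cases, with 10 even by CPM, 7 relative to common counts and 4 after TMM, beside 36.8%, 24.6% and 11.1% of common promoters. Acadm, the medium-chain dehydrogenase, had 81.4, 98.2 and 114 CPM (old replicate 1, old replicate 2, young). Ppara, the receptor that drives these genes in liver and kidney, was tubule-biased under all 3 scalings (8.33, 50.9 and 55.5 CPM), as was Ehhadh, a peroxisomal enzyme (13.8, 39.4 and 36.8). Hadha and Hadhb, 2 subunits of one enzyme, share 1 region and so 1 value (25.4, 19.0 and 19.8 CPM). Of 17 integrated stress response genes, all with a common promoter, 6 were even by CPM (3 and 3 under the other scalings). Oma1, the inner membrane protease that relays mitochondrial stress, had 47.8, 51.6 and 50.4 CPM, and Ddit3, which encodes CHOP, 98.7, 68.6 and 70.0. Shmt2, of mitochondrial one-carbon metabolism, was tubule-biased (2.92, 27.3 and 30.5 CPM), like Asns (4.56, 11.4 and 7.57) and Fgf21 (0.666, 4.80 and 2.70), whereas Atf3 was immune-biased (67.5, 29.0 and 28.5).

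Cytosolic ribosomal protein genes were common in 18 of 18 cases, 13 of them even by CPM, 6 relative to common counts and 0 after TMM. Over all common promoters these shares were 36.8%, 24.6% and 11.1%. Rps19 had 134, 116 and 128 CPM (old replicate 1, old replicate 2, young). Reference housekeeping genes were common in 19 of 19, but only 6 were even by CPM, 2 relative to common counts and 1 after TMM. Gapdh had 62.3, 40.9 and 49.5 CPM, and Gusb was immune-biased with 56.6, 9.50 and 9.79 CPM. Of 16 genes for cohesin, CTCF and promoter factors, all were common and 7 were even by CPM (1 and 0 under the other scalings). Ctcf had 61.6, 25.8 and 29.7 CPM, higher in old replicate 1 than in both others, and Wapl, which releases cohesin, had 56.6, 47.6 and 53.7.

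Tubule genes were mostly common in spite of the few tubule cells of old replicate 1. Of 26 proximal tubule identity genes with a listed start, 23 had a common promoter and 19 of these were tubule-biased under all 3 scalings, against 19.8% of common promoters by CPM. Slc4a4, the basolateral bicarbonate cotransporter, had 3.79, 55.4 and 75.2 CPM (old replicate 1, old replicate 2, young). Lrp2, which encodes the endocytic receptor megalin, had 2.81, 37.8 and 43.1, and Hnf4a 2.21, 35.0 and 37.1. The 4 without tubule bias were Gatm (27.0, 17.98 and 21.6 CPM), Ass1 (19.1, 40.3 and 35.4), Khk (23.5, 34.3 and 39.9) and Anpep (2.97, 5.02 and 3.29). Gatm was the only one of these 4 that was highest in old replicate 1.

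Of 17 kidney lineage transcription factors, 14 were common, 12 of them tubule-biased under all 3 scalings, beside 19.8% of common promoters by CPM, 18.5% relative to common counts and 15.8% after TMM. Sall1 had 4.82, 45.7 and 46.5 CPM (old replicate 1, old replicate 2, young) and Pax8 2.67, 30.0 and 35.6. Gata3, which also acts in T cells, was immune-biased (30.1, 10.2 and 9.41), and Sim1 had neither bias. Loop to collecting duct genes were common in 11 of 21 cases. Umod, the uromodulin gene of the thick ascending limb, was tubule-biased (0.957, 12.3 and 13.8 CPM), as were Cldn10, Trpv5, Kl, Slc26a4 and Tfcp2l1. Egf was even by CPM (52.8, 36.6 and 37.5), with little difference between the classes.

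Immune identity genes were mostly not common. Of 25 with a listed start, 24 had a peak in some library but only 6 had a common promoter. Ikzf1, Coro1a, Cd37 and H2-Aa were immune-biased under all 3 scalings. Cd37 had 41.6, 1.37 and 2.56 CPM (old replicate 1, old replicate 2, young) and H2-Aa, an MHC class II gene, 44.5, 10.2 and 9.55. The promoters of Irf8 (30.5, 25.2 and 24.5) and Lcp1 (25.9, 20.4 and 18.7) were even by CPM but not relative to common counts or after TMM, with log2 ratios in old replicate 1 of -0.09 at each. Haematopoietic factors were common in 13 of 21 cases. Klf2 (70.9, 22.1 and 23.3 CPM) and Batf3 (3.87, 2.46 and 1.67) were immune-biased, Tcf7 was tubule-biased (4.81, 18.6 and 21.1), and Cebpa was even by CPM (37.4, 32.9 and 33.5).

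Interferon and antigen presentation genes were common in 17 of 18 cases and 7 were immune-biased by CPM (10 under each of the other scalings), against 6.20% of common promoters by CPM, 10.9% relative to common counts and 13.6% after TMM. These were Irf2, Irf7, H2-K1, Ifit1, Oas1a, Bst2 and Ifi35. Oas1a, an RNA sensor, had 11.7, 1.68 and 1.08 CPM (old replicate 1, old replicate 2, young). Tapbp, of the peptide loading complex, was even by CPM at 20.03, 20.36 and 19.98. Immediate early genes were common in 17 of 17, with 2 even and 4 immune-biased by CPM. Nr4a1 had 44.6, 8.40 and 7.94 CPM, and Fos 66.0, 40.8 and 38.9. Old replicate 1 was the highest library at 16 of the 17, against 49.2% of all common promoters. Clock genes were common in 15 of 15. Clock was even by CPM (27.2, 24.6 and 24.1), Per1 immune-biased (85.1, 43.3 and 38.0), and Nr1d2 (55.9, 90.8 and 108), Rora (1.05, 15.1 and 13.4) and Npas2 (2.59, 17.6 and 20.1) tubule-biased by CPM.

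**Figure D4:**
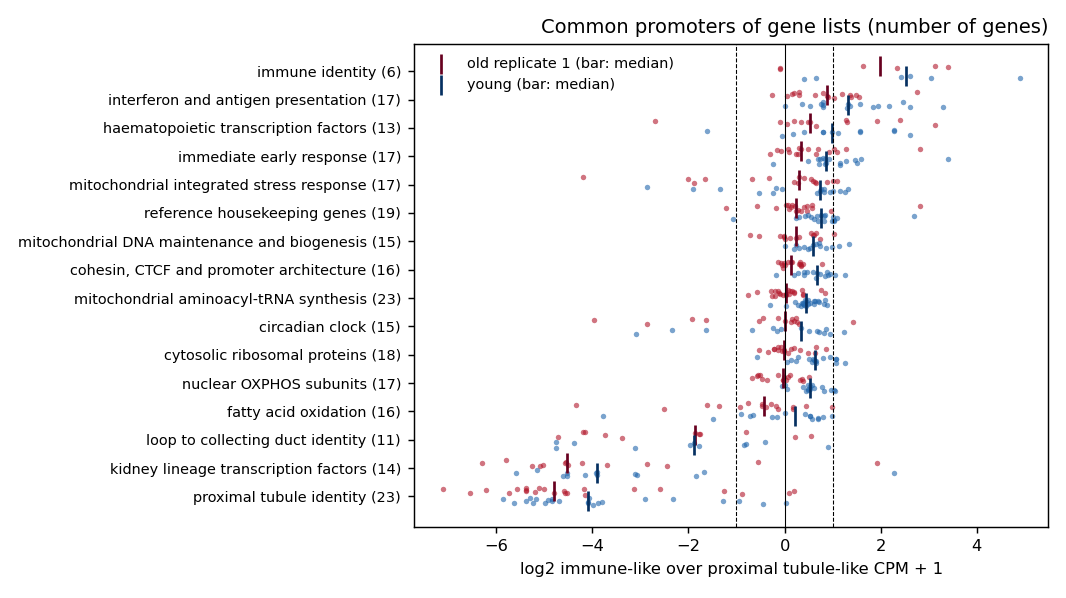
Common promoters of the gene lists (1 point per gene and library) by log2 of immune-like over proximal tubule-like CPM in old replicate 1 and in young kidney. Dashed lines are the 2-fold limits. Of 23 proximal tubule identity genes 19 lie beyond the tubule-biased limit in both libraries, and the 23 genes for mitochondrial tRNA charging lie around 0.

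MicroRNAs, short RNAs that silence matching transcripts, had 132 of 1005 hairpins inside a common region, against 247 in any merged region. Of the 132, 35 lay in tubule-biased and 7 in immune-biased regions, and 36 in even ones, beside 33.2%, 7.02% and 18.2% of all common regions. The mature RNAs of 6 hairpins in biased regions are given from RefSeq, chosen after their values were seen because their names are well known in these cells. Seeds (bases 2 to 8, which pair with targets) are in capitals, and the 6 seeds all differ.
mmu-miR-155-5p: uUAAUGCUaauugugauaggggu
mmu-miR-192-5p: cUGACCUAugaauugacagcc
mmu-miR-194-5p: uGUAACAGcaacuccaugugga
mmu-miR-200a-3p: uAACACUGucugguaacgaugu
mmu-miR-29c-3p: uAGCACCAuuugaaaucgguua
mmu-miR-802-5p: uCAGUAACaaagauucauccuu
The region over Mir155, a microRNA of activated leukocytes, was immune-biased, with 11.5, 1.02 and 0.731 CPM (old replicate 1, old replicate 2, young) and log2 ratios of 3.803 in old replicate 1 and 3.45 in young kidney. The others were tubule-biased. Mir200a, an epithelial microRNA, had 1.95, 16.9 and 16.3 CPM. Mir192 and Mir194-2 share a region and so have the same levels, 0.728, 4.34 and 5.17. Mir29c had 1.65, 10.8 and 14.8 CPM and Mir802 0.385, 3.2597 and 5.48, low in old replicate 1 in each case. The levels are those of chromatin over the hairpin, not of the RNA.

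Promoter letters set common starts apart from others. In windows of 250 bases before to 50 after a start, 16781 starts with a common region had a median of 60.0% G and C and a ratio of observed to expected CpG of 0.716. Starts in other merged regions had 50% and 0.2497, and starts without a peak 45.7% and 0.179. Within common starts, immune-biased ones had 55.0% and 0.454, tubule-biased ones 56.3% and 0.445, and those with neither bias 61.0% and 0.766. After TMM the ratio was 0.674 for immune-biased and 0.410 for tubule-biased starts. Even starts had 0.793 and the rest 0.627 by CPM, and this order turned round after TMM (0.573 and 0.728).

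All 18 motifs were searched on both strands of the same windows, and the share of all 32851 listed starts with a match is given for each. These were SP/KLF GGGCGGG (25.6%), CEBP TTGCNNAA (10.8%), NFY CCAATCA (7.82%), AP-1 TGANTCA (7.81%), E-box CACGTG (7.15%) and RUNX TGTGGTT (5.27%). Rarer ones were ETS CCGGAAGT (3.89%), TEAD ACATTCC (3.85%), PU.1 GAGGAAGT (3.20%), CRE TGACGTCA (1.79%), NRF1 GCGCATGCG (1.75%) and ZNF143 ACTACAANT (1.49%). The rest were YY1 AAGATGGCG (1.40%), CTCF AGGGGGCGC (1.245%), HNF1 GTTAATNAT (0.801%), IRF GAAAGTGAA (0.581%), HNF4 CAAAGTCCA (0.475%) and ESRR TCAAGGTCA (0.423%). ETS and PU.1 share the letters GGAAGT. Capitals in the promoters above leave out AP-1, CEBP, E-box, RUNX and TEAD.

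Common starts held SP/KLF in 42.6% of cases, against 12.4% of starts in other merged regions. ETS was in 6.82% and 0.879%, NRF1 in 3.09% and 0.404%, and YY1 in 2.47% and 0.211%. AP-1 ran the other way, with 5.20% of common and 10.4% of other merged starts. By bias, PU.1 was in 6.10% of immune-biased and 1.90% of tubule-biased common starts (5.09% and 1.59% after TMM). HNF1 was in 0.535% of immune-biased and 1.93% of tubule-biased starts (0.318% and 2.42% after TMM), and HNF4 in 0.428% and 1.60% (0.273% and 1.54% after TMM). ETS was rare in both, at 1.71% and 1.20%, and stood in 8.51% of starts with neither bias. It was in 10.9% of even starts and 4.16% of the rest by CPM, an order that turned round after TMM (3.62% and 7.17%). Windows differ in base composition, and no test was made.

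Old kidney was compared with young within cell classes, on counts summed over the cells of a class in each library. Unless another tool is named, tests are edgeR's quasi-likelihood test, two-sided, with Benjamini-Hochberg adjustment over all regions tested and TMM scaling, on 2 old libraries and 1 young one. Of 72313 common regions in proximal tubule-like cells, 36 (0.0498%) passed an adjusted p of 0.05, 34 higher (0.0470%) and 2 lower (0.00277%) in old. The median log2 of old over young over all regions was -0.01. Of the 36 called regions 3 were promoters, 19 gene body and 14 intergenic, and 27 were tubule-biased, 8 had neither bias, 1 was immune-biased and 0 were even. Promoters were 19.3% of common regions, gene body regions 46.8% and intergenic ones 28.4%. Tubule-biased regions were 33.2%, those with neither bias 59.8%, immune-biased ones 7.02% and even ones 18.2%. Bias and evenness were read from counts that this test also used, so that part of the split is no separate result. Each of the 36 kept its direction without either old library, which gives values and no test. Fitted together with the other merged regions, 59 of 72313 common regions (0.0816%) and 244 of 98489 others (0.248%) passed. In that fit a library without a peak in a region counted 0 there. Peak calls and openness cannot be told apart in the calls among the others, so the shares are not comparable. Most of these cells fell into clusters of 1 age: 3003 of the 3021 young cells were in 3 clusters with 1 cell of old replicate 1 and 5 of old replicate 2. One cluster had at least 10 cells of every library, with 33, 314 and 15 cells (old replicate 1, old replicate 2, young). There 23 of the 36 could be tested and 1 passed, with a median log2 of 7.84 against 3.11 in all clusters. All 23 had the same direction, but these cells are among those that gave the 36 calls. With 15 young cells, a region could also pass the count filter through the old libraries alone, so the direction is no separate support. Cell state within the class, age and library cannot be told apart here.

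The largest increase was at an intergenic region 20515 bp from Siah1a, with 36.0, 15.9 and 1.54 TMM-scaled CPM (old replicate 1, old replicate 2, young). Its log2 fold change was 3.995 ± 0.567 (SE, adjusted p = 0.0144, edgeR). Each SE was worked back from the fold change and the test's F statistic, so it is no separate measure of spread. A region 28193 bp from Gm31254 had 14.0, 16.2 and 0.971 CPM (log2 3.97 ± 0.57, adjusted p = 0.0144, edgeR). A gene body region 97306 bp from Snhg14, the long non-coding RNA of an imprinted domain, had 13.1, 16.5 and 1.02 CPM (3.88 ± 0.57). In each of these, both old libraries were well above the young one. A region 169393 bp from Il13ra2 had 22.4, 15.5 and 1.46 CPM (3.65 ± 0.54). A gene body region 77853 bp from Nudt21 had 29.0, 26.5 and 2.21 CPM (3.64 ± 0.47), with the smallest adjusted p of all (0.00621, edgeR). Without old replicate 1 the log2 values of these 5 lay between 3.32 and 3.99. The counts in old replicate 1 were small, between 28 and 77.

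Higher promoters in old were those of Rxrg, a retinoid X receptor, and H1f7, a testis-type linker histone. Rxrg had 23.4, 29.1 and 3.23 CPM (old replicate 1, old replicate 2, young), a log2 of 3.04 ± 0.45, and H1f7 51.9, 32.4 and 4.603 CPM (3.16 ± 0.45, adjusted p = 0.0144, edgeR). Other called gene body regions are named by the nearest listed start, which need not be that of the gene they lie in. Their nearest starts were those of Psat1, of serine synthesis (24.3, 11.4 and 1.53 CPM), and Gldc, of glycine cleavage (27.6, 28.4 and 5.08). The others were nearest to the cytochrome P450 gene Cyp2j11 (25.7, 20.2 and 2.79) and to Mmp7, a protease gene (30.4, 20.2 and 3.98). These last 4 were named after their values were seen, and a link between the regions and these genes was not tested. Both old libraries were above the young one at all 6, as they were at each of the 34 regions called higher in old.

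Lower in old were a region 3887 bp from Gm32328, with 1.87, 4.61 and 32.2 CPM (old replicate 1, old replicate 2, young) and a log2 of -3.06 ± 0.45 (adjusted p = 0.0144, edgeR), and the promoter shared by H2ac7 and H2bc7. The histone promoter had 1.87, 2.59 and 19.0 CPM in proximal tubule-like cells (-2.98 ± 0.51, adjusted p = 0.0328, edgeR), and its adjusted p was 0.252 in DESeq2 and ran between 0.00363 and 0.260 over all alternatives with a test. Without old replicate 1 its log2 was -2.85. In the whole libraries it had 47.0, 3.17 and 17.98 CPM, highest in old replicate 1, where most cells were immune-like.

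That promoter lies among the replication-dependent histone genes, which are read out mainly in dividing cells and whose promoters commonly carry NFY sites. These genes were examined after the values were seen. Of 58 listed histone genes, 50 had a common region, in 54 regions, of which 20 were immune-biased, 0 tubule-biased and 7 even, beside 7.02%, 33.2% and 18.2% of all common regions. In proximal tubule-like cells both old libraries were below the young one at 39 of the 54 and above it at 2. Both were below it at 29.3% of all tested regions and at 31.7% of tested promoters. The median log2 was -0.41, and median levels were 11.9, 10.4 and 20.8 CPM (old replicate 1, old replicate 2, young). One region, that of H2ac7, passed the adjusted test, and 20 had an unadjusted p under 0.05, against 2.29% of all regions. H1f5, a linker histone gene, had 2.81, 3.91 and 19.4 CPM (-2.43 ± 0.48, adjusted p = 0.0868, edgeR).

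In loop to collecting duct-like cells, from segments that set salt and water loss, 53 of the histone regions could be tested. Both old libraries were below the young one at 40 (34.6% of all tested regions, 36.3% of tested promoters) and above it at 0. The median log2 was -0.61, with levels of 16.4, 16.1 and 35.1 CPM (old replicate 1, old replicate 2, young). In the whole libraries the median was the other way (0.81), with 57.8 CPM in old replicate 1, 9.80 in old replicate 2, with 20.9 in the young library. Near-identical copies of these genes may share or lose reads, so single regions are uncertain.

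**Figure D5:**
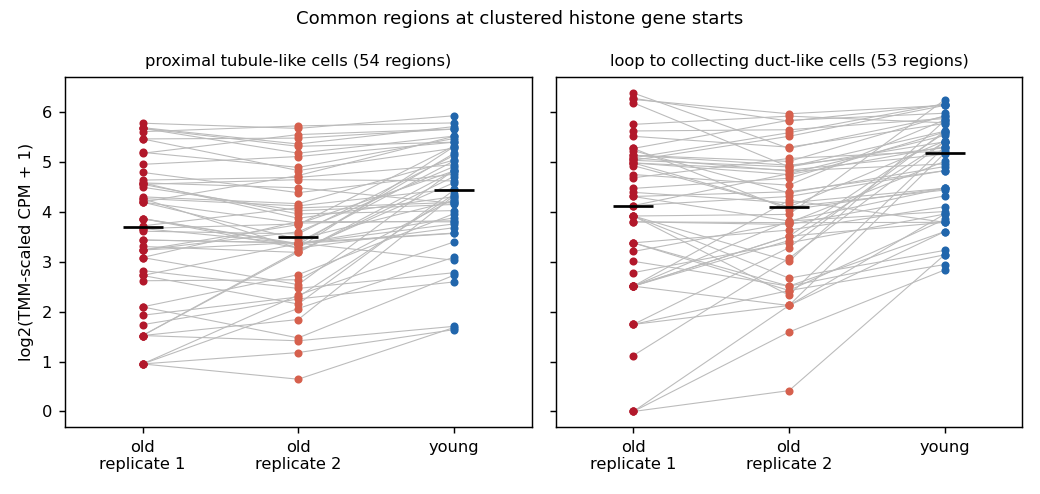
TMM-scaled CPM (log2 of CPM plus 1, y) of the common regions at histone genes in each library, in proximal tubule-like cells (left) and loop to collecting duct-like cells (right). Each line is 1 region and black bars are medians. In both tubule classes the medians of the old libraries lie below that of the young one (11.9, 10.4 and 20.8 CPM in proximal tubule-like cells).

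Other lists showed no called promoter in proximal tubule-like cells. For interferon and antigen presentation both old libraries were above the young one at 8 of 17 promoters and below at 0 (median log2 0.15). Over all common promoters 16.9% were above and 31.7% below, and over all regions 26.6% and 29.3%. For immune identity 5 of 6 were above (median 0.28). The summed level at 18 macrophage or dendritic cell markers in these cells was 544 CPM in old replicate 1, 404 in old replicate 2, with 418 in young kidney. Of these markers 0 to 2 were at 0. In the same order, T or NK cell markers had 276, 275 and 287 CPM, B or plasma cell markers 208, 194 and 204, and neutrophil markers 59.9, 43.2 and 50.1. A library without a peak in a region counted 0 there, so these levels also depend on each library's peak calls. The part of immune signal in the list values was not tested. For mitochondrial tRNA charging, old was below young at 10 of 23 and above at 0, with a median of -0.08. Proximal tubule identity had a median of -0.03, with 3 above and 9 below of 23.

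In loop to collecting duct-like cells 0 of 47676 common regions passed the adjusted test in edgeR (0%), with 1055 at an unadjusted p under 0.05. DESeq2 also called 0, with 670 unadjusted, as did edgeR over all merged regions, with 1804 unadjusted. Under 4 other settings edgeR called 27 to 35 (0.0378% to 0.0713% of regions tested), of which 6 or 7 were histone regions, all lower in old. This class held 56, 327 and 191 cells (old replicate 1, old replicate 2, young). In the whole libraries 0 of 72317 passed in edgeR (0%), with 16 unadjusted, and 0 in DESeq2, with 3030 unadjusted. The median log2 of old over young there was 2.15 at immune-biased, -0.68 at tubule-biased and 0.50 at even regions, against 0.05 over all. With immune-like cells at 4819 of 5315 in old replicate 1 and 9 of 3950 in old replicate 2, age and the cells in a library cannot be told apart in whole libraries.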

How the data were processed

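Per the submitters' processing notes, the authors ran Cell Ranger ATAC 2.1.0 against mm10. Raw counts of transposition events were deposited for each peak and barcode, and each library has its own peak calls. Both ends of a fragment are counted, so 89.5% to 94.3% of the values in the deposited count tables were even numbers, and an event is not a molecule. Total counts were 96093221 in old replicate 1, 64729297 in old replicate 2, with 110871506 in young kidney.

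Peaks were merged with bedtools 2.31.1 at an overlap of 1 bp, and a region's count in a library sums that library's peaks inside it. CPM scales counts to a fixed total over all of a library's peaks. The members, gene lists and tests were chosen with earlier results of these data known. Starts and sequences came from RefSeq (GRCm38.p6), whose listing used here leaves out chromosome 18 and other genes. Distal sequence was not used here.

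Barcodes with at least 1000 counts were kept, and doublets (248 in old replicate 1, 133 in old replicate 2, 135 in young kidney) were removed by neighbour scores against simulated doublets. Cells were clustered on common regions (latent semantic indexing, 30 components, 20 neighbours, leidenalg 0.10.2 at resolution 1, 20 clusters) and clusters named from fixed markers. The naming rule was revised after the clusters were seen. Gene counts then covered all merged regions, and identity lists also counted among leading genes. Class names are rebuilt here and are not the authors' own. Cells without a class name had 1021, 1082 and 1198 CPM (old replicate 1, old replicate 2, young) summed over 18 proximal tubule markers. Proximal tubule-like cells had 1620, 1683 and 1797 CPM there. Tubule cells may be among the unnamed ones, which was not tested.

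Old was tested against young with edgeR 4.0.16 in R 4.3.3 (quasi-likelihood, TMM, filterByExpr, 1 residual degree of freedom) on counts summed per class. Leaving out an old library leaves no spread within groups, so it gives values only. Scripts were tested on simulated data. Named regions were, by fixed rule, the 4 most open even promoter and distal regions by their lowest library, and the 4 most biased of each kind at a mean of at least 10 CPM. The rule also took the 3 widest, the 5 most changed in each direction, those next to the 1.5 limit, and listed genes. Alternatives were other scalings, thresholds, pseudocounts, filters, DESeq2 1.42.0, cell filters and leaving out each library.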

Additional observations from a re-analysis of the deposited data

How the results depend on the processing

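No paired analysis was possible because there is 1 young library and the labels give no pairing. Peaks in at least 2% of barcodes gave 28081 common regions, a promoter share of 37.3% and a median width of 958 bp. Leaving out 1 library gave 78422 to 118097 regions, promoter shares of 14.0% to 18.4% and widths of 912 to 949 bp. The promoter share was 17.3% at 500 bp and 24.2% at 2500 bp either side of a start, and 16.4% with protein-coding starts only. The width was 895 bp for the libraries' own peaks and 956 bp when merging needed 250 bp of overlap.

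The even share was 17.3% relative to common counts, 16.9% after TMM, 7.61% at a stricter ratio limit, 33.2% at a limit of 2 and 24.1% at a mean of at least 5 CPM, with 22.4% to 84.4% over libraries left out. The immune-biased share was 11.2% at 1.5-fold, 4.19% at 3-fold, 8.55% and 4.03% with 0.1 and 5 added, and 11.5% after TMM. It was 6.63% without doublet removal, 7.24% with cells of at least 3000 counts, 8.24% at a mean of at least 5 CPM, 9.61% relative to the class's common counts and 11.4% to 12.3% in 1 library alone. The tubule-biased share was 40.9%, 24.6%, 38.4%, 18.6%, 28.7%, 33.5%, 32.2%, 39.3% and 31.8% under the same alternatives in that order, and 39.6% to 44.4% in 1 library alone. Scaling by the class's common counts, and the cluster restriction below, were added after seeing the data.

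In proximal tubule-like cells the 36 calls were 0.0498% of the regions tested. They became 75 (0.104%) with RLE size factors, 113 (0.156%) without doublet removal and 7 (0.00968%) with cells of at least 3000 counts. Over all merged regions, with a missing peak counted as 0, there were 303 (0.177% of 170802). In the cluster with at least 10 cells of every library there were 75 (0.400% of 18760). DESeq2 called 47 (0.0650%), of which 35 were among the 36. In loop to collecting duct-like cells the 0 became 30 (0.0629% of regions tested) with RLE size factors and 27 (0.0378%) without a filter. It became 35 (0.0713%) without doublet removal and 33 (0.0686%) with cells of at least 3000 counts. Over all merged regions and in DESeq2 it stayed 0. The cause of these moves was not tested. No fold change or bias of a named region reversed its direction under these alternatives, but the promoter and distal order of evenness did after TMM (11.1% and 18.5%, against 36.8% and 12.7% by CPM), as did the orders named beside their values. With 1 residual degree of freedom and as few as 122 proximal tubule-like cells in old replicate 1, depth and replication limit the age tests.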

Other observations

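Whole libraries differed at promoters of general function as well as at immune genes. Old replicate 1 was the highest of the 3 libraries by CPM at 18 of 18 ribosomal protein, 16 of 16 cohesin, CTCF and promoter factor, and 18 of 19 reference housekeeping promoters. It was also the highest at 49.2% of all common promoters and at 70.8% of the 10% most open common regions. At proximal tubule identity promoters it was the highest at 1 of 23, and the young library at 17, against 24.2% of all common promoters for the young library. Fatty acid oxidation genes lay between, with 8 of 16 highest in old replicate 1, 2 in old replicate 2, with 6 in young kidney. Common regions on chromosome X were even in 22.3% of 1716 cases by CPM and tubule-biased in 25.9%, against 18.1% and 33.3% of 70586 on autosomes.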
